A study of Mus musculus with 21 samples.

Results

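Brown adipose tissue (BAT) was compared with white vastus lateralis (WV), the pale part of a thigh muscle, in floxed mice only. The comparison used 10 of the 21 RNA libraries of the study: 5 of BAT and 5 of WV, both labelled with the floxed genotype and taken as whole tissue. These mice are the littermate controls of BATI4KO mice, which, by what is known of the study, lack the transcription factor Irf4 through a Cre recombinase driven by the Ucp1 promoter. On the same basis, the floxed mice of both tissues carry a loxP-flanked Irf4 gene and no Cre. The labels give no strain, age, sex, housing temperature or treatment. The titles of 3 BAT libraries carry short numbers (BAT_FX_1, BAT_FX_2 and BAT_FX_3) and those of the other 2 carry long tags (BAT_FX_5497 and BAT_FX_5503), whereas all WV titles carry long tags (WV_FX_5413, WV_FX_5415, WV_FX_5497, WV_FX_5503 and WV_FX_5514). Both long tags of the BAT libraries recur among the WV titles. The meaning of the numbers is not stated, nor is it stated that each library is 1 animal, so p-values measure only the spread between these libraries.

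BAT burns lipid to make heat: its mitochondria hold uncoupling protein 1 (Ucp1), which lets protons re-enter the matrix without making ATP. White vastus is made mostly of fast-contracting fibres, which draw ATP from phosphocreatine, glycogen and glycolysis. Brown adipocytes and skeletal muscle fibres share an embryonic origin in the somites. Many of their enzymes and mitochondrial subunits come in related gene pairs (paralogs) of which one is typical of muscle.

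The 6 marker genes checked followed the tissue labels in all 10 libraries. Levels are CPM, counts scaled to a common library size, and libraries are given in the order of the title numbers above. Ucp1 stood at 2224, 1969, 1595, 2526 and 5595 CPM in BAT, and at 0.0958, 0.405, 0, 0 and 0.0465 CPM in WV. The library BAT_FX_5503 was the highest, and no WV library reached 1 CPM. Cidea, a lipid droplet protein of brown fat, averaged 748 ± 246 CPM in BAT (SD, n = 5) and 0.434 ± 0.242 in WV. The fat hormone gene Adipoq ranged from 483 to 719 CPM in BAT and from 0.558 to 13.4 CPM in WV, where WV_FX_5415 was highest. Myh4, the fastest myosin heavy chain, stood at 71850, 56410, 78800, 100800 and 73490 CPM in WV and at 30.8, 45.2, 77.9, 149.7 and 32.3 CPM in BAT. Ckm, the creatine kinase of muscle, averaged 24020 ± 5458 CPM in WV and 18.02 ± 11.9 in BAT. Acta1, skeletal actin, averaged 39248 ± 4807 CPM in WV and 48.2 ± 30.2 in BAT. The groups did not overlap for any of these 6 genes.

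**Figure D1:**
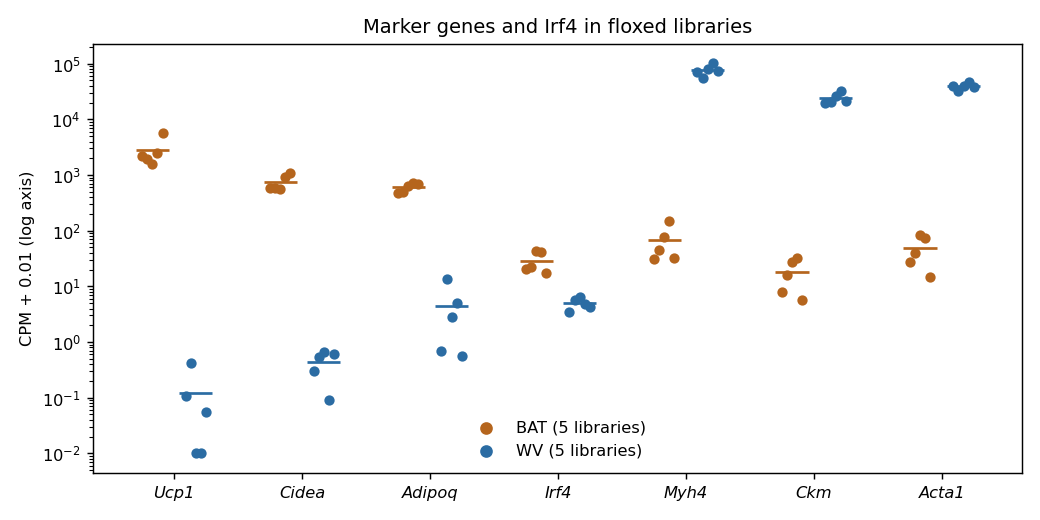
CPM plus 0.01 (log axis) of the 6 marker genes and of Irf4 in each of the 5 BAT and 5 WV libraries of floxed mice, with a bar at each group's mean. Every BAT library lies above every WV library for Ucp1, Cidea, Adipoq and Irf4 and below every WV library for Myh4, Ckm and Acta1.

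Total counts were 21613301 to 41773148 per library in BAT and 30479508 to 34710220 in WV. The giant muscle protein gene Ttn took 8.72% to 14.5% of the counts of a WV library and 0.00653% to 0.0771% of a BAT library, while the model DQ539915 took 9.08% to 12.5% in BAT and 2.03% to 5.86% in WV. Of 28541 gene models, 15592 passed the expression filter. By edgeR's quasi-likelihood test with Benjamini-Hochberg adjustment, which gives every adjusted p below unless another test is named, 5671 genes (36.4% of those tested) were higher in BAT and 5076 (32.6%) higher in WV, 68.9% in either direction. A difference of over 2-fold, tested as such with edgeR's glmTreat, was called for 2205 genes (14.1%) in BAT and 2214 (14.2%) in WV, 28.3% in either direction. The 2 groups of libraries did not overlap for 8429 genes (54.1%), so separation on its own is common in this comparison. A gene low in one tissue could pass the filter through the other tissue alone, so counts over the tested members of a list describe only those members. The size of a log2 difference is likewise a description for genes barely detected in the lower tissue, among them Ucp1, Cox6a2, Fitm1, Mstn and Myf6. The median log2 difference over all tested genes, BAT minus WV, was 0.12. Scaling by library totals alone raised the median by 0.749 and the share of calls that were higher in BAT from 52.8% to 79.4%, so small differences rest on the scaling. In whole tissue, fewer cells of a type and less RNA per cell cannot be told apart.

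**Figure D2:**
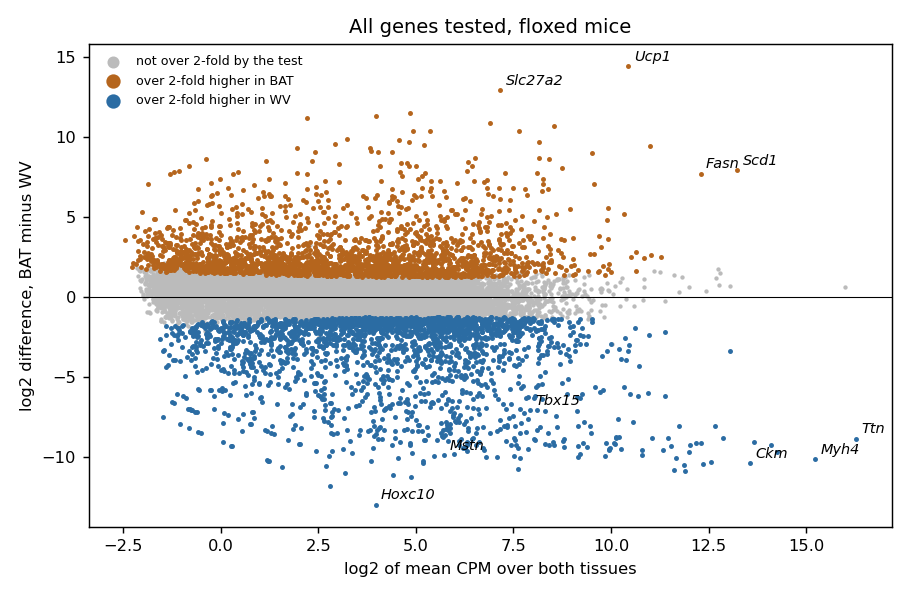
The log2 difference, BAT minus WV, of each of the 15592 tested genes against the log2 of its mean CPM over both tissues. Coloured points are the 2205 genes called over 2-fold higher in BAT and the 2214 called over 2-fold higher in WV, and 10 genes are named.

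Promoter sequences are shown for the paralogs whose shares differed most between the tissues (Pgam2 and Pgam1, phosphoglycerate mutases) and for a marker of each tissue (Ckm and Ucp1). Each is the 250 bases before the gene's start in RefSeq on build GRCm38.p6, written 5′ to 3′ on the gene's strand, and capitals mark the motif CAGCTG, an E-box of the kind bound by myogenic factors.
Pgam2 (chr11:5803797-5804046, minus strand): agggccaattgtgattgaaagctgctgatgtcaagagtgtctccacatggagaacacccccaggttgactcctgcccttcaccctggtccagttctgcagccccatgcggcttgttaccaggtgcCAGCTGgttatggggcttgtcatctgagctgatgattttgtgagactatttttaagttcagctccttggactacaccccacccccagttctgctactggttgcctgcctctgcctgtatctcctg
Pgam1 (chr19:41911621-41911870, plus strand): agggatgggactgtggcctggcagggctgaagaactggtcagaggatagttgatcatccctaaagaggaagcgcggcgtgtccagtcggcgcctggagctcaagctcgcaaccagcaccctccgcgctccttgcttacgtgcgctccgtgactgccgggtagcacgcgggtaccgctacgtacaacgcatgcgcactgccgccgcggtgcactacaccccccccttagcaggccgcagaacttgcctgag
Ckm (chr7:19410844-19411093, plus strand): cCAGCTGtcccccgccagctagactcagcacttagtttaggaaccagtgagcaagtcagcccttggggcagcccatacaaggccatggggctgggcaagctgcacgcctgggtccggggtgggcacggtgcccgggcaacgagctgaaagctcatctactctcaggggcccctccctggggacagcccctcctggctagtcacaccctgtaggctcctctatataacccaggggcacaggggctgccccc
Ucp1 (chr8:83290098-83290347, plus strand): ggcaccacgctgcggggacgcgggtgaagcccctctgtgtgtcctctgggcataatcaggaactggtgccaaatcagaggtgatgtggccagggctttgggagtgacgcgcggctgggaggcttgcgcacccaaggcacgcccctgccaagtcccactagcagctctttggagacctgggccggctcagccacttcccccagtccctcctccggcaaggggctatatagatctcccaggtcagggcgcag
On either strand, CAGCTG occurs in the Pgam2 and Ckm windows and in neither of the other 2. It occurs in 12.8% of the 27025 promoter windows of the same length in the RefSeq table. TATAAA (13% of windows), searched on both strands as well, occurs in none of the 4. Only these exact letters were searched, so related stretches were not counted, such as tatataa in the Ckm window and tatatag in the Ucp1 window. The Pgam2 window holds 1 CpG and the Pgam1 window 22, against a median of 6 over all windows. Of 15451 tested symbols, 9887 (64.0%) matched the promoter table, too few to give motif shares by direction, and a match of letters is a description of the window only.

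Heat-making genes were higher in BAT almost throughout, over a very wide range. Of 22 genes of the thermogenic list, 20 were higher in BAT, none was higher in WV and 2 did not pass, with a median log2 difference of 4.63. Ucp1 had the largest difference of the list and of the named genes (log2 14.47 ± 0.79 (SE), adjusted p = 1.555e-09). It had 15 counts over all WV libraries and passed the filter through BAT, so the size of this difference is a description. Dio2, which activates thyroid hormone within the cell, stood at 406.6, 393.6, 180.0, 1019 and 1029 CPM in BAT and at 6.71, 5.57, 1.64, 1.12 and 3.16 CPM in WV. Elovl3, a fatty acid elongase induced by cold, stood at 12.9, 4.63, 4.93, 67.7 and 69.8 CPM in BAT and averaged 0.381 ± 0.195 CPM in WV. For both genes the BAT libraries with long tags were the highest. The Elovl3 difference was log2 7.49 with these libraries alone and 4.28 with the 3 short-numbered ones alone, and that of Dio2 was 8.149 and 6.486. Cox8b, a cytochrome oxidase subunit often used as a brown fat marker, averaged 204 ± 90.1 CPM in BAT and 97.6 ± 37.1 in WV (log2 1.06 ± 0.32, adjusted p = 0.00997), and with the long-tagged BAT libraries alone it no longer passed (log2 0.34, adjusted p = 0.421). Cox7a1, another such marker, did not pass, at 88.7 ± 54.4 against 56.2 ± 27.2 CPM (log2 0.66 ± 0.43, adjusted p = 0.186). Its value rested on which libraries were used: it was higher in BAT with the short-numbered BAT libraries alone (log2 1.095, adjusted p = 0.0296), did not pass with the long-tagged ones alone (log2 -0.45, adjusted p = 0.419) and was higher in WV with a replicate block, a term for the title number (log2 -0.70, adjusted p = 0.0178). In the block fit, here and below, only libraries whose tag recurs in both tissues inform the tissue difference, and 1 residual degree of freedom is left.

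General fat genes were also higher in BAT, with 1 exception. Of 18 genes of this list, 17 were higher in BAT, and the median log2 difference was 5.002. The master regulator Pparg averaged 247 ± 42.2 CPM in BAT and 3.001 ± 0.973 in WV. The fatty acid carrier Fabp4 averaged 2494 ± 922 and 68.6 ± 12.5 CPM, and the droplet coat gene Plin1 had the largest difference of the list (log2 8.07 ± 0.71, adjusted p = 2.17e-07). The exception was Slc2a4, the insulin-responsive glucose transporter of both tissues, at 281 ± 39.1 CPM in BAT and 655 ± 68.8 in WV (log2 -1.22 ± 0.16, adjusted p = 1.34e-05). Across the 18 genes, the median level in a WV library was 1.94% to 3.51% of the mean BAT level.

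Genes of lipid synthesis had a larger median difference than genes of lipid burning. Of 18 genes of fatty acid and triglyceride synthesis measured, 15 were higher in BAT and 3 did not pass (median log2 4.59, but 3.31 without the most abundant models and 4.23 with the short-numbered BAT libraries alone). They took 3.61% to 6.85% of all counts of a BAT library and 0.129% to 0.152% of a WV library. Fasn, fatty acid synthase, stood at 12370, 4287, 6615, 11890 and 14800 CPM in BAT and at 29.3, 53.9, 50.5, 68.1 and 32.8 CPM in WV. Scd1, which makes monounsaturated fatty acids, averaged 19203 ± 7443 CPM in BAT and 78.4 ± 71.6 in WV, and Acly, which supplies cytosolic acetyl-CoA, 506 ± 212 and 18.5 ± 5.80. The elongase gene Elovl6 had the largest difference (log2 8.69 ± 0.46). Lpin1, a phosphatidate phosphatase used in both tissues, was at 633 ± 73.1 and 595 ± 85.3 CPM and did not pass, but passed under scaling by library totals (log2 0.87, adjusted p = 0.000209). Of 24 fatty acid oxidation genes, 22 were higher in BAT and 2 did not pass (median log2 1.98), among them Acadvl (log2 2.01 ± 0.25) and Hadha (log2 1.74 ± 0.26), both of mitochondrial beta-oxidation. Cpt1b, the muscle-type carnitine palmitoyltransferase that admits fatty acids to mitochondria, was higher in BAT, at 889 ± 163 against 379 ± 80.7 CPM. Its liver-type paralog Cpt1a was at 17.5 ± 1.23 and 19.4 ± 3.14 CPM and did not pass, though it was higher in BAT under scaling by library totals (log2 0.58, adjusted p = 0.0162). Ehhadh, a peroxisomal enzyme, had the largest difference (log2 4.13 ± 0.36).

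Most fat storage and uptake genes were higher in BAT, and a few were higher in WV. Of 15 lipid droplet and lipolysis genes, 13 were higher in BAT and 1 in WV (median log2 3.70). The lipases Pnpla2 (log2 3.67 ± 0.29) and Lipe (log2 5.22 ± 0.18) and the droplet protein Plin5 (log2 2.31 ± 0.38) were higher in BAT. Fitm1, which helps to form droplets in muscle, was at 0.102 to 0.325 CPM in the BAT libraries and 131.4 to 157.9 CPM in those of WV (log2 -9.44 ± 0.23). Of 15 uptake genes, 11 were higher in BAT and 3 in WV (median log2 1.30). Lpl, the capillary lipoprotein lipase, averaged 3598 ± 838 CPM in BAT and 570 ± 339 in WV. Its anchor Gpihbp1 (log2 1.20 ± 0.20) and the fatty acid receptor Cd36 (log2 2.49 ± 0.27) were higher in BAT as well. The lipoprotein receptor Vldlr was higher in WV (log2 -1.38 ± 0.20).

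Genes of the respiratory chain and citric acid cycle were much closer in level than the fuel genes. Of 25 genes of the citric acid cycle and pyruvate entry, 15 were higher in BAT, none in WV and 10 did not pass (median log2 0.58, but 0.37 with the short-numbered BAT libraries alone, 1.09 with the replicate block and 1.37 under scaling by library totals). Citrate synthase, Cs, averaged 1587 ± 220 CPM in BAT and 821 ± 257 in WV (log2 0.95 ± 0.23, adjusted p = 0.00252). Idh3a passed (log2 0.73 ± 0.24, adjusted p = 0.0160) but not without WV_FX_5415 (adjusted p = 0.0698) or WV_FX_5497 (adjusted p = 0.0502). Pdha1, of the pyruvate dehydrogenase complex, stood at the threshold (log2 0.58 ± 0.25, adjusted p = 0.0512) and passed, higher in BAT, in 13 of the alternative fits, such as DESeq2 (adjusted p = 0.0496), without BAT_FX_2 (adjusted p = 0.0302) or without WV_FX_5413 (adjusted p = 0.0245). Pcx, the pyruvate carboxylase that refills the cycle, had the most positive value (log2 2.67 ± 0.19), and Pdhx, of the same complex as Pdha1, the most negative (log2 -0.15), which did not pass. Pdhx was higher in WV with the short-numbered BAT libraries alone (log2 -0.52, adjusted p = 0.0332) and higher in BAT under scaling by library totals (log2 0.62, adjusted p = 0.00668). Of 37 nuclear-encoded complex I subunits, 9 were higher in BAT, 6 in WV and 22 did not pass. Their median log2 difference was -0.05, but 0.74 under scaling by library totals. Ndufs1, a core subunit, stood at 610.3, 491.3, 577.1, 738.4 and 938.3 CPM in BAT and at 944.0, 533.5, 690.7, 548.3 and 842.5 CPM in WV, ranges that overlapped widely, and it was higher in BAT under scaling by library totals (log2 0.69, adjusted p = 0.00261). The largest complex I differences were those of Ndufv3 (log2 1.23 ± 0.22) and Ndufa13 (log2 -1.07 ± 0.24, but -0.31 with an adjusted p of 0.162 under scaling by library totals). The core subunit Ndufv1 also stood at the threshold (log2 0.51 ± 0.22, adjusted p = 0.0504) and passed, higher in BAT, in 12 of the alternative fits, such as without BAT_FX_2, BAT_FX_3 or WV_FX_5413 (adjusted p = 0.0494, 0.0270 and 0.0151). In complex III, 3 of 9 genes were higher in BAT, including Uqcrq (log2 1.28 ± 0.31, but 0.42 with an adjusted p of 0.226 with the long-tagged BAT libraries alone), and 6 did not pass, including Uqcrc1 (log2 0.18 ± 0.24) and Uqcrfs1 (log2 0.14 ± 0.22), both of which passed under scaling by library totals (adjusted p = 0.000221 and 0.000254). Their median log2 difference was 0.23, and 0.035 without WV_FX_5415, 0.365 without BAT_FX_1 and 0.49 with the replicate block.

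In complex IV and the ATP synthase, a few subunits differed by over 2-fold and the others were closer in level. By glmTreat, 2 complex IV genes were over 2-fold higher in BAT and 1 in WV, and 11 did not pass. For the ATP synthase, 3 genes were over 2-fold higher in WV and 13 did not pass. Of 14 complex IV genes, 7 were higher in BAT and 1 in WV (median log2 0.78). This median rested on single libraries and on the scaling: it was 0.2995 without BAT_FX_3, 0.51 without WV_FX_5415, 0.35 with the long-tagged BAT libraries alone, 0.27 with the replicate block and 1.58 under scaling by library totals. Cox4i1 (503 ± 158 and 459 ± 118 CPM) and Cox5a (246 ± 29.7 and 239 ± 60.3 CPM) did not pass, though both were higher in BAT under scaling by library totals (adjusted p = 0.000448 and 0.000185). Cox6a1 stood at 240.4, 224.1, 233.5, 276.8 and 381.9 CPM in BAT and at 6.52, 7.82, 5.67, 4.27 and 7.62 CPM in WV (log2 5.41 ± 0.23). Its muscle paralog Cox6a2 stood at 0.185, 0.0239, 0.536, 0.325 and 0.0204 CPM in BAT and at 199.8, 113.6, 160.4, 136.1 and 183.2 CPM in WV (log2 -9.64 ± 0.50). Of 16 ATP synthase genes, 1 was higher in BAT and 8 in WV. That 1, Atp5d (log2 0.67 ± 0.20), did not pass without WV_FX_5415 (adjusted p = 0.0516) or with the long-tagged BAT libraries alone (adjusted p = 0.113). Their median log2 difference was -0.63, and 0.15 under scaling by library totals. The catalytic subunit Atp5b was at 3765 ± 727 and 3072 ± 716 CPM and did not pass, except under scaling by library totals (log2 1.07, adjusted p = 0.000183). Atp5g1, 1 of 3 genes for the membrane ring subunit c, was at 2.37 to 3.75 CPM in BAT and at 212.8 to 551.5 CPM in WV (log2 -7.01 ± 0.31, adjusted p = 1.85e-10). The other 2, Atp5g2 (log2 -0.61 ± 0.15) and Atp5g3 (log2 -1.99 ± 0.22), were also higher in WV, the former not under scaling by library totals (log2 0.15, adjusted p = 0.353). Low levels of subunit c are a known feature of brown fat. Of the mitochondrially encoded genes, mt-Nd4 was the only listed one found by symbol, at 9293 ± 1965 CPM in BAT and 3988 ± 2920 in WV (log2 1.22 ± 0.43, adjusted p = 0.0218). The groups overlapped, and the call was lost without WV_FX_5415, WV_FX_5497 or WV_FX_5503 (adjusted p = 0.0684, 0.0587 and 0.0506) and with the long-tagged BAT libraries alone (adjusted p = 0.225). Outside the list, Cytb was higher in BAT (log2 1.53 ± 0.45, adjusted p = 0.00774), but not with the long-tagged BAT libraries alone (adjusted p = 0.101). A model labelled Cox2 did not pass (log2 0.67 ± 0.41, adjusted p = 0.164). It passed in 4 of the alternative fits, such as without WV_FX_5413 (adjusted p = 0.00868).

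All 5 genes for uncoupling proteins and ADP/ATP carriers differed. Ucp2 was higher in BAT (46.4 ± 11.97 against 13.3 ± 4.86 CPM), and Ucp3, the muscle-enriched member, was higher in WV (360 ± 134 against 126 ± 34.9 CPM). Slc25a4, the ADP/ATP carrier of heart and muscle, was at 132.3 to 204.2 CPM in BAT and 2426 to 3727 CPM in WV. Its paralog Slc25a5 was at 260.7 to 389.2 CPM in BAT and 39.5 to 50.8 CPM in WV.

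Sugar-handling genes split by isoform. Of 20 glycolytic genes measured, 7 were higher in BAT, 12 in WV and 1 did not pass (median log2 -1.22, and -0.47 under scaling by library totals). The enolase Eno3 averaged 9.29 ± 3.44 CPM in BAT and 5959 ± 919 in WV, and the phosphofructokinase Pfkm 61.9 ± 4.34 and 3910 ± 812. Pfkl, its liver-type paralog, went the other way, at 407 ± 178 CPM in BAT and 12.2 ± 2.02 in WV (log2 5.07 ± 0.30). Ldha, which makes lactate, was higher in WV (log2 -2.38 ± 0.30), and the mutase Pgam2 had the largest WV difference (log2 -9.38 ± 0.28, adjusted p = 1.00e-11). Of 17 glycogen genes, 7 were higher in BAT and 10 in WV (median log2 -2.05, and -1.27 under scaling by library totals). The muscle phosphorylase Pygm averaged 13.8 ± 6.82 CPM in BAT and 8361 ± 1314 in WV. Gys1, the muscle glycogen synthase, was higher in WV (log2 -1.32 ± 0.20), whereas the liver synthase Gys2 stood at 74.7, 35.03, 15.6, 98.9 and 106.4 CPM in BAT and at most at 0.618 CPM in WV (log2 7.41 ± 0.57). Ppp1r3a, which targets a phosphatase to glycogen in muscle, had the largest WV difference (log2 -9.42 ± 0.63).

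Of 6 glucose and lactate transporters, 2 were higher in BAT and 4 in WV (median log2 -0.57, and 0.16 under scaling by library totals). Slc16a3, which exports lactate, was at 0.925 ± 0.269 CPM in BAT and 282 ± 55.3 in WV, and Slc16a7 was higher in BAT (log2 4.65 ± 0.25). In creatine and adenylate buffering, 7 of 8 tested genes were higher in WV (median log2 -3.86, and -1.89 without the most abundant models), including the mitochondrial kinase Ckmt2 (log2 -9.93 ± 0.63) and the adenylate kinase Ak1 (log2 -5.83 ± 0.26). Gatm, of creatine synthesis, was higher in WV (2.43 ± 0.522 against 4.72 ± 1.52 CPM, adjusted p = 0.00359) but not under scaling by library totals (adjusted p = 0.476). Ckb, the brain-type creatine kinase, was the 1 gene higher in BAT, at 24.7 ± 4.22 against 4.96 ± 1.79 CPM (log2 2.31 ± 0.22).

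**Figure D3:**
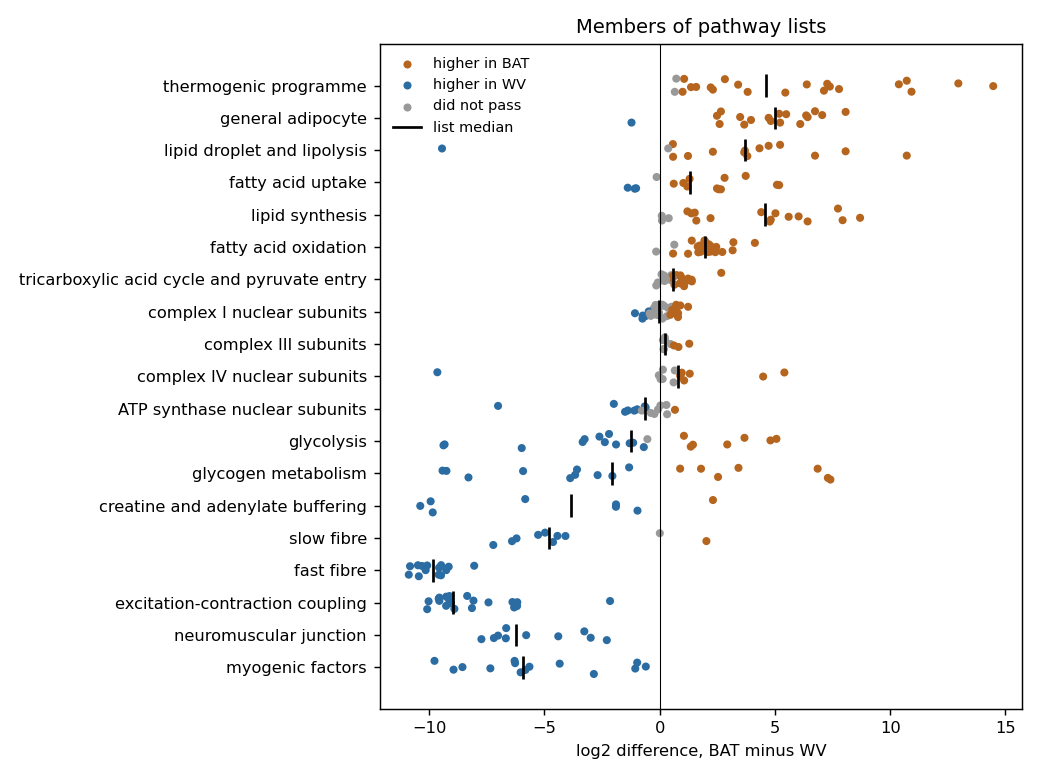
The log2 difference, BAT minus WV, of each tested member of 19 gene lists, with a black bar at each list's median. Members of the fuel and muscle lists lie far to the right or left of 0, while most complex I, III and citric acid cycle genes lie near 0, and the glycolysis and glycogen lists hold members on both sides.

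Genes of the contractile machinery were higher in WV with few exceptions. All 15 thick filament genes were higher there (median log2 -8.76), as were 14 of 15 thin filament genes (median -8.80) and all 19 Z-disc and membrane skeleton genes (median -8.07). Ttn averaged 340 ± 229 CPM in BAT and 157790 ± 54885 in WV. The thin filament ruler Neb (log2 -9.08 ± 0.72), the regulatory light chain Mylpf (log2 -9.56 ± 0.77) and Dmd, dystrophin (log2 -5.40 ± 0.20), were among them, with Mybpc2, the fast myosin-binding protein C, the largest of the thick filament list (log2 -10.48 ± 0.61). The smallest Z-disc difference was that of Sgcd (log2 -1.48 ± 0.18). Tpm3, a tropomyosin also made outside muscle, was at 41.6 ± 7.46 and 41.4 ± 25.6 CPM and did not pass. It was higher in BAT under scaling by library totals (log2 0.79, adjusted p = 0.0211) and with the replicate block (log2 0.92, adjusted p = 0.00796). All 14 fast-fibre genes were higher in WV (median log2 -9.83), from Tnni2 (log2 -10.88 ± 0.84) to Myl1 (log2 -8.04 ± 0.36). Atp2a1, the fast calcium pump, averaged 57.3 ± 34.0 CPM in BAT and 35052 ± 8305 in WV.

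Slow-fibre genes were low and uneven among the WV libraries. Myh7, the slow myosin, stood at 14.3, 3.04, 42.6, 0.912 and 249.0 CPM in WV and at 1.41, 2.51, 3.04, 2.50 and 0.571 CPM in BAT, so the groups overlapped. Tnnt1, the slow troponin T, ranged from 0.622 to 37.6 CPM in WV, with WV_FX_5514 the highest and WV_FX_5503 the lowest, as for Myh7. Of 10 slow-fibre genes, 8 were higher in WV and 1 in BAT (median log2 -4.80, and -3.51 without WV_FX_5514 and -3.39 with the replicate block). That 1 was Atp2a2, the slow and general calcium pump, at 369 ± 77.6 against 90.5 ± 67.6 CPM. The Myh7 difference (log2 -4.97 ± 1.19, adjusted p = 0.00210) did not pass with the long-tagged BAT libraries alone (adjusted p = 0.0503) or with limma voom and quality weights (adjusted p = 0.0827). Myl3, a slow light chain, had the most negative value (log2 -7.21 ± 1.15), with an adjusted p of 0.0534 in limma voom.

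All 20 tested genes of excitation-contraction coupling were higher in WV (median log2 -8.98), among them the calcium release channel Ryr1 (log2 -9.11 ± 0.65) and its voltage sensor Cacna1s (log2 -9.14 ± 0.55). The smallest difference was that of Asph (log2 -2.15 ± 0.30) and the largest that of the calcium buffer Pvalb (log2 -10.08 ± 0.72). All 10 tested neuromuscular junction genes were higher in WV (median log2 -6.22), including the receptor subunits Chrna1 (1.63 ± 0.495 against 12.95 ± 2.74 CPM), Chrnb1 (log2 -2.29 ± 0.23) and Chrne (log2 -7.73 ± 0.34) and the kinase Musk (log2 -7.01 ± 0.38). All 14 tested myogenic factors were higher in WV (median log2 -5.93), among them Myod1 (log2 -8.55 ± 0.75), Myf6 (log2 -9.77 ± 0.40) and Mef2c (log2 -6.03 ± 0.26), and Mef2d had the smallest difference (log2 -0.60 ± 0.17), which did not pass under scaling by library totals (log2 0.20, adjusted p = 0.268).

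Muscle transcripts were nonetheless detected in every BAT library. Over 49 muscle structure genes, the median level in a BAT library was 0.122% to 0.457% of the mean WV level, highest in BAT_FX_3 and BAT_FX_5497 and lowest in BAT_FX_5503. Lists of muscle structure and calcium handling (70 genes) took 0.0709% to 0.23% of the counts of a BAT library and 31.7% to 39.8% of a WV library. Among the RPKM (counts scaled by model length and library size) of the myosins Myh4, Myh1, Myh2 and Myh7, Myh4 held 77.4% ± 9.75 in BAT and 86.5% ± 9.39 in WV, and the shares overlapped (exact permutation p = 0.151). Myh7 held 2.46%, 3.12%, 2.30%, 0.931% and 1.28% in BAT and 0.0114%, 0.00386%, 0.0362%, 0.000676% and 0.209% in WV. The lowest BAT share was thus above the highest WV share (exact two-sided permutation p = 0.00794, the smallest that the design allows). The Myh7 share was looked at after its values were seen. The skeletal myosins are alike in sequence, so reads may have been split or lost between them.

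Paralog pairs of the same enzyme or subunit changed their balance between the tissues. For each of 36 measured pairs, the share of the first, mostly muscle-type gene in the summed RPKM was compared by an exact permutation test over libraries with Benjamini-Hochberg adjustment. The share was larger in WV for 28 pairs, larger in BAT for 2 and did not pass for 6. In 19 pairs the major gene was a different one in each tissue, and the libraries did not overlap for 28. Among all genes tested singly, 68.9% were called in either direction and the libraries did not overlap for 54.1%. The pairs were chosen with earlier results known and mostly put the muscle-type gene first, which favours a larger share in WV. These counts are therefore a description of the chosen pairs. Pgam2 held 0.988%, 1.48%, 1.92%, 1.28% and 0.50% of the Pgam2 and Pgam1 sum in BAT and 99.5%, 99.3%, 99.6%, 99.7% and 99.5% in WV (exact permutation p = 0.00794, adjusted 0.0102). Read per length, this was an exchange of the major gene: Pgam2 averaged 2.22 RPKM in BAT and 1468 in WV, and Pgam1 195 and 6.98. Ucp3 against Ucp1 differed by -96.9 percentage points (3.06% ± 0.928 in BAT, 99.9% ± 0.102 in WV). The muscle phosphorylase Pygm against the liver form Pygl differed by -95.4 points, and the AMP deaminase Ampd1 against Ampd2 by -92.7 points. These differences had the same exact p and adjusted value as that of Pgam2.

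Among the oxidase subunits, Cox6a2 held 0.071% ± 0.0742 of its pair with Cox6a1 in BAT and 95.1% ± 1.70 in WV. Cox8b held 51.8% ± 9.54 of its pair with Cox8a in BAT and 91.8% ± 2.94 in WV, since Cox8a was far lower in WV (log2 4.49) while Cox8b was close. Cox7a1 held 50.2% ± 7.49 and 59.8% ± 4.73 of its pair with Cox7a2, which did not pass (exact permutation p = 0.0556, adjusted 0.0625), and passed without BAT_FX_1 or without WV_FX_5415 (both adjusted p = 0.0369, exact permutation). The carrier Slc25a4 held 30.4% ± 2.50 of its pair with Slc25a5 in BAT and 98.3% ± 0.286 in WV. The only pairs with a larger first share in BAT were Cpt1b with Cpt1a (98.7% ± 0.25 against 96.5% ± 1.07) and Pdk4 with Pdk2 (88.6% ± 2.76 against 75.2% ± 12.1, exact permutation p = 0.0159, adjusted 0.0190), and the libraries of the latter overlapped. Pdk2 and Pdk4 restrain pyruvate oxidation. Near-identical copies, including processed copies of Pgam1 and of the Cox genes, may have taken reads from some of these genes.

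**Figure D4:**
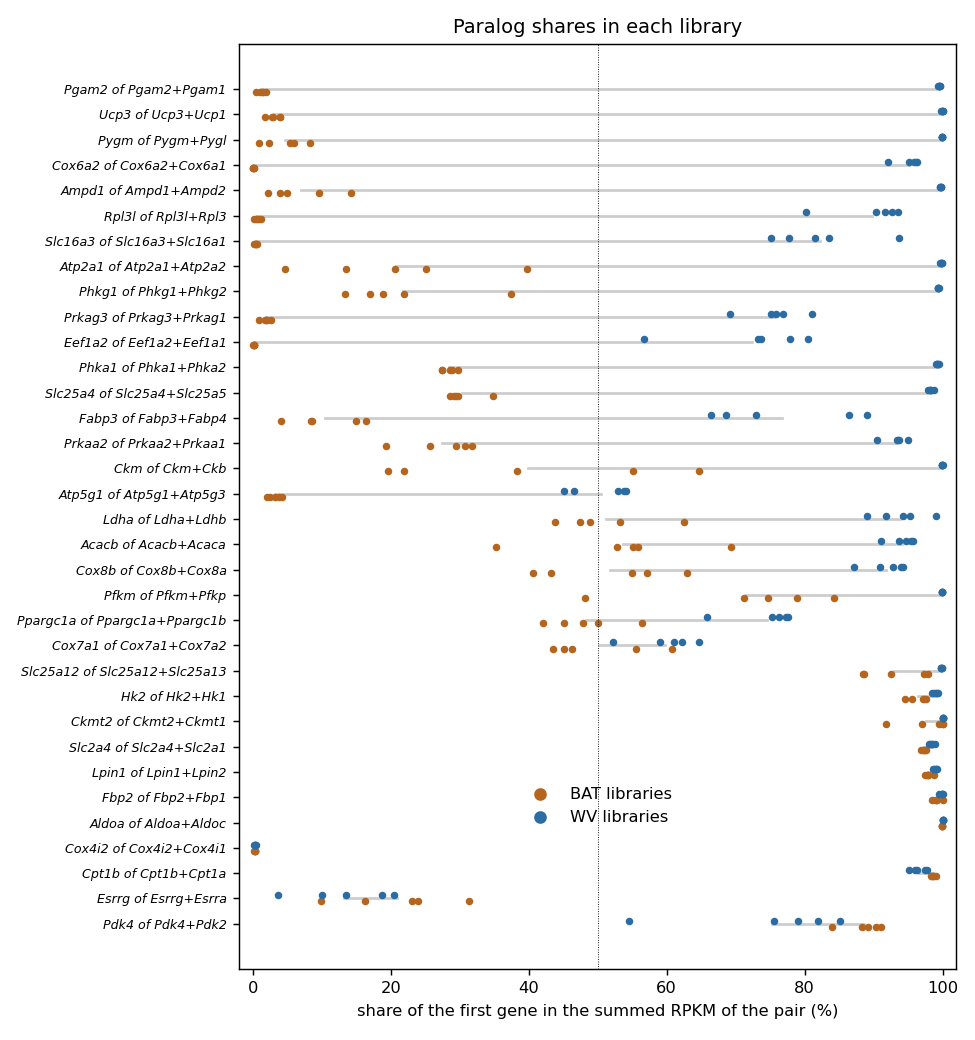
For 34 of the 36 measured paralog pairs, the share of the first gene in the summed RPKM of the pair (percent) in each BAT and each WV library, ordered by the mean difference. The dotted line marks equal shares. Pgam2, Ucp3, Pygm and Cox6a2 lie below 9% in every BAT library and above 92% in every WV library, while the Cox7a1 shares overlap.

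Among 23 tested transcription factors of brown fat, 16 were higher in BAT, 4 in WV and 3 did not pass (median log2 1.36, and 2.16 under scaling by library totals). Prdm16, which holds brown adipocytes to their fate, stood at 45.8, 39.5, 56.7, 29.0 and 20.98 CPM in BAT and at 4.27, 3.47, 2.58, 3.03 and 4.83 CPM in WV (log2 3.40 ± 0.27). Ebf2 averaged 54.6 ± 5.08 and 7.66 ± 2.19 CPM, and Zic1 4.45 ± 0.511 and 1.46 ± 0.695. Lhx8 was at 1.37 to 2.08 CPM in BAT, from 335 counts, against 1 count over all WV libraries, a ratio of 204.7 with a 95% counting interval of 36.5 to 8110. Counting intervals cover counting error only, since the reads carry no molecular identifiers. Tbx15, a factor of both brown fat and fast muscle, had by far the most negative value, at 2.85 to 5.22 CPM in BAT and 394.2 to 541.3 CPM in WV (log2 -7.06 ± 0.23).

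Irf4, the gene deleted elsewhere in the study, stood at 20.6, 22.4, 43.2, 41.1 and 17.6 CPM in BAT and at 3.45, 5.77, 6.54, 4.89 and 4.32 CPM in WV (log2 2.53 ± 0.28, adjusted p = 2.17e-06). BAT_FX_3 and BAT_FX_5497 were the highest in BAT, and the groups did not overlap. Of 9 interferon regulatory factors, 5 were higher in BAT and 2 in WV, beside 36.4% and 32.6% of all tested genes. By glmTreat, 1 of the 9 was over 2-fold higher in BAT and 1 in WV. Irf4 had the largest BAT difference and Irf5 the largest WV difference (log2 -2.63 ± 0.55). A fit over all 21 libraries tested whether the tissue difference was the same in BATI4KO mice, and 3 of 16632 genes (0.018%) passed. Irf4 was 1 of them: its tissue difference was larger in floxed mice by log2 1.98 ± 0.30 (adjusted p = 0.0122). The other two were Nthl1 (log2 -1.49 ± 0.23, adjusted p = 0.0122) and Dusp10 (log2 1.90 ± 0.31, adjusted p = 0.0220), and 1294 genes had an unadjusted p under 0.05. Scaling by library totals left none of the 3 calls, and DESeq2 gave 20.

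HOX genes, which mark position along the body axis and the limb, are described here by their number within the cluster, a grouping made after the values were seen. Of 14 measured HOX genes numbered 1 to 5, 13 had the higher mean CPM in BAT, with no test in this count, and 12 entered the test. Of these 12, 11 were higher in BAT, but 6 of the 11 did not reach the filter's level in every WV library and so passed it through BAT. Hoxc4 did not pass (log2 0.39 ± 0.25), and was higher in BAT without BAT_FX_5497 (adjusted p = 0.0343) and with the short-numbered BAT libraries alone (log2 0.67, adjusted p = 0.0111). Hoxa5 stood at 13.4, 9.71, 10.1, 10.5 and 13.1 CPM in BAT and at 1.29, 1.35, 1.49, 0.953 and 1.16 CPM in WV (log2 3.18 ± 0.18). Hoxb4, at the filter's level in only 1 WV library, had the largest BAT difference (log2 3.67 ± 0.28). Of the 7 tested genes numbered 6 to 8, 1 was higher in BAT (Hoxb6, log2 1.79 ± 0.47, adjusted p = 0.127 with the long-tagged BAT libraries alone) and 6 did not pass. Hoxb6 reached the filter's level in no WV library and so passed it through BAT, which makes its level a description. Of 16 genes numbered 9 to 13, 11 had the higher mean CPM in WV and 2 in BAT, with no test in this count. The other 3 (Hoxc13, Hoxd11 and Hoxd12) had no count in either tissue. Of the 6 that entered the test, 5 were higher in WV and 1 did not pass. Among the 11, Hoxc12 and Hoxd13 had 1 count each. Hoxa11 and Hoxa13 stood mainly in WV_FX_5413 (2.92 and 3.50 CPM). In all, 10 of the 16 had no count in any BAT library and 4 had none in any WV library. Hoxc9, Hoxc10, Hoxc11 and Hoxa10 passed the filter through WV alone, so their levels are a description. Hoxc10 had no count in any BAT library and stood at 48.3, 21.3, 30.7, 29.8 and 26.5 CPM in WV. Against a floor of 3 counts over the BAT group, its level was at least 2111-fold higher in WV. Hoxc9 was likewise at least 315-fold and Hoxc11 at least 75.2-fold higher. Hoxa10 had 1 count in BAT against 1588 in WV, a ratio of 2598 with a 95% counting interval of 466 to 102700. Hoxa9 averaged 0.19 CPM in BAT and 5.14 in WV (log2 -4.76 ± 0.29). It reached the filter's level in only 2 BAT libraries and so also passed it through WV, which makes its level a description. Hoxd9 did not pass (log2 -0.53 ± 0.45), and Hoxd10 had too few counts to be tested (0.028 and 0.117 CPM).

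**Figure D5:**
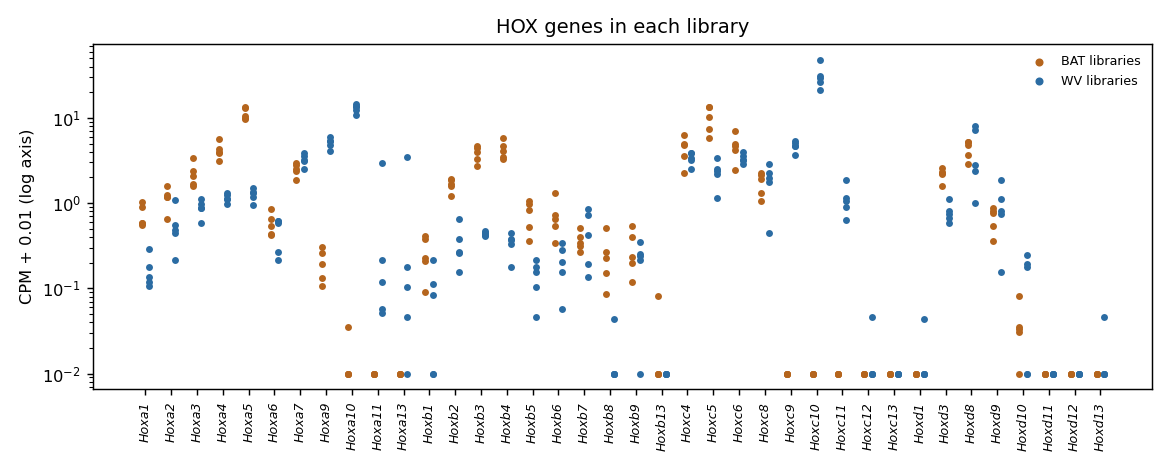
CPM plus 0.01 (log axis) of 38 HOX genes in each BAT and each WV library, ordered by cluster and number. Every BAT library lies above every WV library for Hoxa5 and Hoxb4 and below every WV library for Hoxa9, Hoxa10, Hoxc9, Hoxc10 and Hoxc11, and Hoxc9, Hoxc10 and Hoxc11 have no count in BAT.

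Other genes of limb and axial identity were mixed. Of 12 tested, 3 were higher in BAT and 7 in WV. Tbx4, a hindlimb factor, was at 0.215 ± 0.0673 CPM in BAT and 2.13 ± 0.298 in WV (log2 -3.26 ± 0.27), and its forelimb counterpart Tbx5 at 3.95 ± 1.31 and 0.725 ± 0.521 CPM (log2 2.39 ± 0.42). The hindlimb factor Pitx1 had too few counts to be tested (0.0405 and 0.165 CPM). Lbx1, which guides muscle precursors into the limb, had the most negative value (log2 -9.01 ± 0.34), and Meis2 the most positive (log2 2.94 ± 0.36).

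Most tested receptors of an adrenergic and lipolysis list were higher in BAT. Of 14 tested, 9 were higher in BAT, 1 in WV (Adora2b, log2 -2.61 ± 0.36) and 4 did not pass (median log2 4.29). Adrb3, the beta-3 adrenergic receptor of fat, stood at 81.9, 109.1, 42.7, 36.2 and 148.7 CPM in BAT and at 0.192, 1.42, 0.363, 0.207 and 0.372 CPM in WV (log2 7.27 ± 0.57). The lactate receptor Gpr81 was higher in BAT (log2 6.07 ± 0.41).

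Of 15 tested secreted factors of fat, 11 were higher in BAT and 1 in WV (Sfrp5, log2 -1.44 ± 0.27, adjusted p = 0.0601 under scaling by library totals), with a median log2 of 3.96. Nrg4, a signal from brown fat, was at 199.7 to 253.3 CPM in BAT and 0.719 to 3.47 CPM in WV. Cfd, also called adipsin, averaged 968 ± 431 and 21.5 ± 22.7 CPM, while Bmp8b did not pass (1.06 ± 0.501 and 0.632 ± 0.317 CPM), except without WV_FX_5415 (adjusted p = 0.0460), in limma voom (adjusted p = 0.0333) and under scaling by library totals (adjusted p = 0.0118). Of 8 secreted factors of muscle, 6 were higher in WV and 2 did not pass, including Vegfb (log2 0.81 ± 0.36, adjusted p = 0.0600). Vegfb passed, higher in BAT, in 11 of the alternative fits, such as without WV_FX_5413 (log2 1.26, adjusted p = 0.00188), without BAT_FX_5497 (adjusted p = 0.0435), in limma voom (adjusted p = 0.00152) and with the replicate block (adjusted p = 0.00139). Ostn had no count in BAT and averaged 4.59 ± 0.728 CPM in WV, at least 309.6-fold higher. Fndc5 was higher in WV (log2 -5.04 ± 0.55). In the myostatin and activin axis, 7 of 9 tested genes were higher in WV and 1, the inhibitor Fst, in BAT (log2 1.04 ± 0.41, adjusted p = 0.0345). The Fst call was lost without BAT_FX_2, BAT_FX_3, WV_FX_5413, WV_FX_5497 or WV_FX_5514 (adjusted p = 0.0718, 0.109, 0.0643, 0.0737 and 0.0563) and with the long-tagged BAT libraries alone (log2 0.16, adjusted p = 0.783). Mstn, the muscle growth inhibitor myostatin, stood at 56.0, 124.6, 119.1, 156.7 and 73.9 CPM in WV and at 0.0693, 0.143, 0, 0.25 and 0.0612 CPM in BAT (log2 -9.88 ± 0.47). Its receptor Acvr2b was higher in WV (log2 -2.35 ± 0.27).

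Markers of other cell types were present in both tissues. Of 14 endothelial markers, 11 were higher in BAT, and their summed level was 778 to 927 CPM in BAT and 277 to 510 CPM in WV. Pecam1 (log2 0.75 ± 0.18) and Cdh5 (log2 1.01 ± 0.19), which join endothelial cells, were among them, Kdr had the largest difference (log2 2.46 ± 0.30), and Vwf was higher in WV (log2 -0.72 ± 0.15), but not under scaling by library totals (log2 0.029, adjusted p = 0.896). Of 12 fibroblast and preadipocyte markers, 8 were higher in WV, including Pdgfra (log2 -1.31 ± 0.20), Col1a1 (log2 -1.18 ± 0.27) and Dcn (log2 -1.59 ± 0.30), and the summed level was 682 to 1465 CPM in BAT and 1450 to 2572 CPM in WV. Dlk1 was higher in BAT (log2 1.398 ± 0.46), but not with the long-tagged BAT libraries alone (adjusted p = 0.774), and Col1a1 did not pass under scaling by library totals (adjusted p = 0.177). The summed level of 11 macrophage markers overlapped, at 73.4 to 147 CPM in BAT and 47.3 to 201 CPM in WV, and only Cd14 of them passed, higher in BAT (log2 1.43). All 5 tested satellite cell markers were higher in WV, and the muscle stem cell factor Pax7 had 2 counts in BAT against 274 in WV, a ratio of 224.2 with a 95% counting interval of 61.5 to 1860. Cdh15 (log2 -9.77 ± 0.37) and Itga7 (log2 -1.23 ± 0.14) bounded that list. The part of these cell types in the gene differences above was not tested.

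Ranked by difference among abundant genes, the BAT side was led by Ucp1, Slc27a2, Otop1, Cidea, Kcnk3, Slc36a2, Pck1, Prkar2b, Ntrk3 and Elovl6. Slc27a2, a fatty acyl-CoA synthetase, was at 229.8 to 381.1 CPM in BAT, from 58905 counts, against 4 counts over all WV libraries. Pck1, of glyceride-glycerol synthesis in fat, averaged 4057 ± 1046 CPM in BAT and 5.70 ± 4.68 in WV. Kcnk3, a potassium channel, was even among the BAT libraries (397 ± 23.2 CPM). Otop1, a proton channel, averaged 241 ± 66.1 CPM in BAT and 0.111 ± 0.0905 in WV. The others of these 10 were the amino acid transporter Slc36a2 (log2 9.68 ± 0.50), the protein kinase A subunit Prkar2b (log2 9.04 ± 0.53) and the neurotrophin receptor Ntrk3 (log2 8.69 ± 0.38). The WV side was led by Tnni2, Tnnc2, Actc1, Mybpc2, Actn3, Ckm, Tnnt3, Myh4, Myh13 and Pvalb, all of them of the sarcomere or its calcium and energy supply. Actc1, cardiac actin, was uneven in WV (173.7 to 777.4 CPM). Myh13, the extraocular myosin, averaged 403 ± 95.2 CPM in WV, and its reads may come in part from the related Myh4.

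Per length, and leaving out models that carry only a sequence accession as a name, the most abundant genes of WV were Acta1 (27388 RPKM), Ckm (16975), Myh4 (12112), Tnni2 (11304), Tnnt3 (10826), Myl1 (10303), Atp2a1 (10190), a model labelled Cox2 (9466), Tnnc2 (9009) and Aldoa (8442). In BAT, 9 of the 10 most abundant were the model labelled Cox2 (15062 RPKM), mt-Nd4 (5574), Mir715 (5052), Scd1 (3970), Fabp4 (3890), Cytb (3677), Atp5b (2004), Rpph1 (1757) and Ucp1 (1692). No contractile gene was among these 9, and no fat gene among the 10 of WV. Among the models left out, DQ539915 ranked first in both tissues, at 49052 RPKM in BAT and 31674 in WV. Rpph1, the RNA of ribonuclease P, was uneven in both tissues. It stood at 434.3, 643.6, 1547, 18.4 and 28.1 CPM in BAT, where both long-tagged libraries were the lowest, and at 28.9, 35.01, 361.2, 397.8 and 404.3 CPM in WV, where WV_FX_5413 and WV_FX_5415 were far below the others. The call for Rpph1 rested on the libraries used: it did not pass over all 10 (log2 1.12 ± 1.01, adjusted p = 0.334), but was higher in WV with the long-tagged BAT libraries alone (log2 -3.39, adjusted p = 0.0236), with title style as a covariate (log2 -3.40, adjusted p = 0.0174) and with the replicate block (log2 -4.06, adjusted p = 9.35e-06).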

How the data were processed

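RNA of whole BAT and WV was depleted of ribosomal RNA, primed with random hexamers and made into libraries with a transposase kit, per the labels' protocols. The authors deposited 1 table of raw counts per tissue, not normalized, with 1 row per gene model. Build mm9, TopHat2 2.0.14, featureCounts 1.4.6, SAMtools 0.1.19, Picard 2.2.4, edgeR and bcl2fastq 2.17.1.14 are named, without their order, in the submitters' processing notes. Settings and strand: not given in the sources used here.

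The tables of both tissues were joined on the model identifier, and every column was matched to a sample by its title. Models were filtered with filterByExpr, scaled with TMM and compared (5 BAT against 5 WV) with edgeR 4.0.16 in R 4.3.3 (glmQLFit, glmQLFTest and glmTreat at 2-fold), with Benjamini-Hochberg adjustment over all tested models and calls at 0.05. CPM use TMM-scaled library sizes, and log2 differences come from the fit with edgeR's default prior count. A prior count of 2 was used only for the log2 CPM behind the correlations of deviations and the spread of list levels. A floor is 3 counts over a group, and intervals and floors cover counting error only. Paralog shares were compared by exact permutation over libraries. The interaction of tissue and genotype was fitted over all 21 libraries. Alternatives were other scalings and filters, DESeq2 1.42.0, limma 3.58.1, subsets of libraries and a block for the title number (the replicate block). Replicates of a tissue differed by more than counting noise (chi-square per gene at least 39.43). The scripts were tested on simulated data, in which smaller changes were recovered less often.

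The genes, lists and pairs were chosen with earlier results of these data known. Named genes are the 6 markers, Irf4, fixed members and the extremes of each described list, the 10 largest differences per tissue among genes of at least 100 CPM called over 2-fold without overlap, the 10 highest by RPKM per tissue (both rankings without models named only by an accession), and the pairs with the largest share differences. Symbols with several models are represented by 1 model. A few genes and 2 paralog pairs that these rules name are not reported here.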

Additional observations from a re-analysis of the deposited data

Results flagged for a closer look

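A library standing apart from the other 4 of its tissue, by the gap to its neighbour relative to the group's range, was found in 18 of 402 groups of 5 values (4.48%), which is near the 1 in 20 that chance gives. Log2 of CPM plus 0.1 was used for genes.

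In BAT, BAT_FX_3 was highest for Myl1 (65.2 CPM, others 42.1 to 46.3), the cardiac actin Actc1 (0.822 CPM, others 0.0999 to 0.143) and the matrix gene Dcn (232.2 CPM, others 109.7 to 136.3). BAT_FX_5503 was highest for Atp5b (5032 CPM, others 3250 to 3637) and lowest for Myf6 (0 CPM, others 0.0693 to 0.107). BAT_FX_1 was lowest for Musk (0.0231 CPM, others 0.286 to 0.449). BAT_FX_5497 held the single count of Hoxa10 (0.0250 CPM) and the largest Slc25a4 share of its pair with Slc25a5 (34.8%, others 28.6% to 29.8%).

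In WV, WV_FX_5415 was highest for Acly (28.7 CPM, others 14.1 to 16.6), Kcnk3 (0.540 CPM, others 0.186 to 0.254), Mir715 (430.4 CPM, others 193.2 to 228.2) and Actb (389.7 CPM, others 219.7 to 254.7). It was also lowest for the Cox6a2 share of its pair with Cox6a1 (92.2%, others 95.1% to 96.3%). WV_FX_5413 was highest for Pfkm (5335 CPM, others 3405 to 3769) and lowest for Ucp2 (5.37 CPM, others 13.4 to 18.6) and Musk (22.6 CPM, others 37.7 to 44.6). WV_FX_5514 was highest for Cox8a (16.0 CPM, others 10.03 to 11.3), and WV_FX_5497 held the single count of Lhx8 (0.0363 CPM).

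The tissue difference of Irf4 was larger in floxed than in BATI4KO mice by log2 1.98 (interaction test, adjusted p = 0.0122).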

How the results depend on the processing

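Depth limits genes near the filter: a count of 0 over a tissue allows up to 0.0148 CPM in BAT and 0.0243 CPM in WV. Scaling by library totals gave 9458 genes higher in BAT and 2451 in WV, with 4966 and 1265 over 2-fold, and no interaction call. Testing against a fold of 4 left 801 and 1056 genes. DESeq2 gave 20 interaction calls. With the long-tagged BAT libraries alone, 0 paralog shares passed, since 2 against 5 libraries cannot reach the threshold. Leaving out 1 library at a time gave 5365 to 5752 genes higher in BAT and 4899 to 5335 in WV, 2107 to 2286 and 2161 to 2397 over 2-fold, and 30 to 31 paralog shares. Of 191 named genes, 146 kept their direction and side of the threshold under every alternative run.

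Only the 2 long tags of BAT recur in WV, and the deviations of these pairs correlated at 0.0675 and 0.0219 across genes, with no label that ties either pair to 1 animal. With the replicate block, which leaves 1 residual degree of freedom, 4552 genes were higher in BAT and 4448 in WV, and 1963 and 2046 over 2-fold. As a random effect in limma voom, the block gave 5689 and 5152.

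Values with a changed sign follow as log2 differences, or percentage points for shares, and the cause was not tested. Under upper-quartile scaling, the sign changed for the median of complex I nuclear subunits to 0.14, Cpt1a to 0.019, Pdhx to 0.021, Ndufs1 to 0.091 and Psma1 to 0.16. Under scaling by library totals, the sign changed for the median of complex I nuclear subunits to 0.74, the median of ATP synthase nuclear subunits to 0.15, the median of glucose and lactate transport to 0.16, the median of atrophy genes to 0.10, the median of cytosolic ribosome to 0.37, Cpt1a to 0.58, Pdhx to 0.62, Ndufs1 to 0.69, Atp5g2 to 0.15, Mef2d to 0.20, Vwf to 0.029, Psma1 to 0.72, Psmb5 to 0.11 and Rps6 to 0.32. With the long-tagged BAT libraries alone, the sign changed for the median of complex I nuclear subunits to 0.048, Cox7a1 to -0.45, Lpin1 to -0.028, Pdhx to 0.28, Ndufs1 to 0.25, Cox5a to -0.015, Hoxc4 to -0.18, Mir715 to -0.58, Rpph1 to -3.39, Arntl to 0.11, Psma1 to 0.37 and the share of Esrrg/Esrra to -0.18 points. With title style as a covariate, the sign changed for the median of complex I nuclear subunits to 0.038, Cox7a1 to -0.46, Lpin1 to -0.038, Pdhx to 0.27, Ndufs1 to 0.24, Cox5a to -0.025, Hoxc4 to -0.19, Mir715 to -0.59, Rpph1 to -3.40, Arntl to 0.10 and Psma1 to 0.36. With the replicate block, the sign changed for the median of complex I nuclear subunits to 0.026, Cox7a1 to -0.70, Lpin1 to -0.094, Pdhx to 0.34, Ndufs1 to 0.44, Hoxc4 to -0.33, Fst to -0.017, Dlk1 to -0.18, Mir715 to -0.28, Rpph1 to -4.06, Bcat2 to -0.016 and Psma1 to 0.27. With the short-numbered BAT libraries alone, the sign changed for Uqcrfs1 to -0.089, Cox4i1 to -0.19 and Tpm3 to -0.18. With limma voom, the sign changed for Cox4i1 to -0.029. With RLE size factors, the sign changed for Cox5a to -0.022 and Tpm3 to -0.054. With DESeq2, the sign changed for Cox5a to -0.022 and Tpm3 to -0.055. With all 21 libraries, the sign changed for Tpm3 to -0.0103. Without the most abundant models, the sign changed for Psma1 to 0.0028. Without a filter, the sign changed for Psma1 to 0.011. With a filter of 1 CPM, the sign changed for Psma1 to 0.028. Leaving out 1 library at a time moved these values across 0: complex I nuclear subunits from -0.24 to 0.032, Lpin1 from -0.073 to 0.14, Ndufs1 from -0.26 to 0.028, Uqcrc1 from -0.016 to 0.35, Uqcrfs1 from -0.028 to 0.27, Cox4i1 from -0.071 to 0.23, Cox5a from -0.17 to 0.14, Tpm3 from -0.19 to 0.44, Psma1 from -0.24 to 0.12 and Cox4i2/Cox4i1 from -0.062 to 0.0052.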

Other observations

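Genes of the core clock, of which 17 were tested, were higher in WV in 8 cases and in BAT in 5 (median log2 -0.72, and -0.40 with the long-tagged BAT libraries alone or the replicate block and -0.037 under scaling by library totals). Rora, a nuclear receptor of the clock loop, averaged 9.40 ± 1.66 CPM in BAT and 71.2 ± 7.36 in WV (SD, n = 5 each), the most negative value, and Per2, a repressor of the loop, was the most positive (log2 1.27 ± 0.17 (SE)). Dbp, a clock output gene, was higher in WV (log2 -1.59 ± 0.24). Arntl, an activator of the loop, stood at 3.26, 2.15, 1.75, 3.27 and 14.2 CPM in BAT and did not pass (log2 -0.72 ± 0.48), with BAT_FX_5503 above the other BAT libraries. Arntl was higher in WV without BAT_FX_5503 (log2 -1.64, adjusted p = 5.74e-05), with the short-numbered BAT libraries alone (log2 -1.77, adjusted p = 0.000121), in limma voom (log2 -1.44, adjusted p = 0.000898) and with the block as a random effect (log2 -1.07, adjusted p = 0.0348). The labels give no time of day. Of 20 genes of branched-chain amino acid breakdown, 15 were higher in BAT and 1 in WV (median log2 1.06, and 1.82 under scaling by library totals). Hibch, of the valine branch, was the most positive (log2 2.15 ± 0.15), Bckdha, of the dehydrogenase complex, also passed (log2 0.84 ± 0.22), and Bckdk, the kinase that inhibits that complex, was the 1 gene higher in WV (85.3 ± 19.6 against 184 ± 31.2 CPM). Bcat2, the mitochondrial transaminase, did not pass (log2 0.24 ± 0.16), except under upper-quartile scaling (adjusted p = 0.0380) and scaling by library totals (adjusted p = 0.000212).

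Of 31 proteasome genes, 26 were higher in WV, none in BAT and 5 did not pass (median log2 -0.95, but -0.22 under scaling by library totals and -0.60 with the long-tagged BAT libraries alone). They ran from Psmc3 (log2 -2.02 ± 0.25) to Psma1 (90.2 ± 33.4 and 90.2 ± 8.51 CPM), which under scaling by library totals was higher in BAT (log2 0.72, adjusted p = 0.00482). Psmb5 was at log2 -0.65 ± 0.13, and did not pass under that scaling (log2 0.11, adjusted p = 0.423). Of 12 atrophy genes, 6 were higher in WV and 5 in BAT (median log2 -0.65, but -0.24 with the long-tagged BAT libraries alone and 0.10 under scaling by library totals). The muscle ubiquitin ligases Trim63 (log2 -8.05 ± 0.58) and Fbxo32 (log2 -5.39 ± 0.17) were higher in WV, and the cell cycle inhibitor Cdkn1a in BAT (73.7 ± 27.8 against 5.45 ± 2.65 CPM). Of 77 cytosolic ribosomal protein genes, 35 were higher in WV, 3 in BAT and 39 did not pass (median log2 -0.39, but -0.26 without BAT_FX_1, -0.66 with the replicate block and 0.37 under scaling by library totals), from Rpl4 (log2 -1.49 ± 0.17) to Rpl3 (log2 1.77 ± 0.20), with Rplp0 at log2 -1.19 ± 0.18 and Rps6 at log2 -0.42 ± 0.15. The Rps6 call was lost without BAT_FX_1, BAT_FX_2 or WV_FX_5503 (adjusted p = 0.0685, 0.0568 and 0.0553). Many of these genes have near-identical copies, so their counts are uncertain. Of 22 genes often used as references in PCR assays, 17 differed: 8 were higher in BAT and 9 in WV (median log2 0.13, but 0.066 without BAT_FX_5503, 0.075 without WV_FX_5415, 0.20 without BAT_FX_1 and 0.89 under scaling by library totals). Over all tested genes, 36.4% were higher in BAT and 32.6% in WV, 68.9% in either direction. Actb (log2 1.26 ± 0.19) and B2m (log2 2.52 ± 0.28) were higher in BAT, Gapdh, which has many processed copies, was higher in WV (log2 -2.61 ± 0.22), and Tbp did not pass (10.6 ± 1.88 and 8.76 ± 0.683 CPM), but was higher in BAT in 6 of the alternative fits, such as without BAT_FX_1 (adjusted p = 0.0493) and with the long-tagged BAT libraries alone (adjusted p = 0.0186).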
